A study of Mus musculus with 18 samples.

Results

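10 growth factor receptor tyrosine kinases were followed through 18 libraries of mouse thyroid cells: the hepatocyte growth factor receptor Met, the Gas6 receptor Axl, the fibroblast growth factor receptors Fgfr1, Fgfr2 and Fgfr3, the insulin-like growth factor 1 receptor Igf1r, the insulin receptor Insr, the ephrin receptors Epha2 and Epha4, and the stem cell factor receptor Kit. They were taken by symbol from the deposited table, which lists them in capitals (MET, AXL, FGFR1, FGFR2, FGFR3, IGF1R, INSR, EPHA2, EPHA4 and KIT), and are 10 of its 23626 genes. The choice was a list of symbols, drawn up with earlier results of these data known.

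All libraries were labelled as thyrocytes sorted for YFP, a yellow fluorescent protein, from untreated mice at 20 weeks. The Braf tumours (n = 4) carried BrafV600E, a mutation that keeps the MAPK pathway kinase Braf active. The Tert-123 tumours (n = 7) carried BrafV600E and Tert-123C>T, a change in the promoter of Tert, the catalytic subunit of telomerase. The K5-Tert tumours (n = 4) carried BrafV600E and K5-Tert, a transgene that by its name runs Tert from the keratin 5 promoter, a promoter of basal epithelia. The other 3 libraries were pools of cells without the Braf mutation: 1 from wild-type mice, 1 from mice with Tert-123C>T and 1 from mice with K5-Tert. Each pool is a single library of a number of mice that the labels do not give, and the Cre line and promoter behind BrafV600E and YFP are not in the labels either. Nothing in the labels says which tumours came from separate mice, so p-values measure the spread between these libraries.

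Receptor tyrosine kinases span the membrane: a ligand outside brings receptors together, the kinase domains inside phosphorylate each other, and adaptor proteins carry the signal to RAS and MAPK and to PI3K. Insulin and insulin-like growth factor signalling act with thyrotropin in the growth of thyrocytes, and the MAPK pathway, which BrafV600E drives from below the receptors, is the main oncogenic route of papillary thyroid cancer. Fibroblast growth factor receptors bind heparan sulphate together with their ligands, and Fgfr2 is required in the embryo for the thyroid to form. Axl is known from macrophages as well as from carcinomas, and Kit from mast cells, melanocytes and germ cells, with loss in thyroid carcinoma described in people.

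Values are TPM, transcript counts scaled to a fixed total, an abundance per transcript length, so levels of different genes can be set side by side. The read depth is unknown, and no counting interval is given. The small RNA Rpph1 took 43.7% to 68.8% of a library's TPM, and 10958 to 15045 genes reached 1 TPM. Tert lay between 11.2 and 73.9 TPM in the K5-Tert tumours, 2.65 and 6.23 in the Tert-123 tumours, and 3.78 and 5.12 in the Braf tumours. Of 12 thyrocyte markers, 9 to 11 were at 1 TPM or more in all libraries of each group. In K5-Tert tumours 1 and 4 and in the Tert-123 and wild-type pools 1 marker was at 0. The transcription factor Pax8 reached at least 16.8 TPM and the epithelial adhesion gene Epcam at least 129 TPM in each of the 15 tumours. Thyroglobulin (Tg), the thyroid hormone precursor, was at 25676 to 31240 TPM in the pools and at 81.9 to 511 TPM in the tumours. K5-Tert tumours 2 and 4 stood apart from the other libraries: their scaling factors of the TMM type were 0.547 and 0.627, against 0.860 to 1.31 elsewhere, and long transcripts were low in them. K5-Tert tumour 3 shared a part of this: the nuclear RNA Malat1 was at 1191, 1908 and 1050 TPM in K5-Tert tumours 2, 3 and 4 and at 5072 to 8420 TPM in the other tumours, and the rank correlation across genes of a library's deviation with transcript length was -0.55, -0.28 and -0.44 in these 3 and -0.21 to 0.24 in the others. Results of the K5-Tert comparisons that rest on tumours 2 and 4 are given with and without them. The comparison with the pools was fitted with both in, and libraries were left out of it only 1 at a time.

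2 of the receptors fell furthest from the pools to the tumours, Kit and Fgfr2, and the sequence before the start of each is shown for that reason alone. Both are read 5′ to 3′ on the gene's strand from RefSeq promoter windows of mouse build GRCm38.p6, in which 8 of the 10 members have an entry. The Kit stretch is chr5:75574737-75574915 on the plus strand, 179 bases, without the last 71 bases of its window, which lie in an annotated exon. The Fgfr2 stretch is chr7:130266809-130267058 on the minus strand, the 250 bases before the RefSeq start, and the nearest GENCODE start lies 545 bases further downstream. Capitals mark matches to any of 4 short motifs searched on both strands: AP-1 (TGANTCA), ETS (CCGGAA), GC box (GGGCGG) and NKX2-1 (CTCAAG).
Kit: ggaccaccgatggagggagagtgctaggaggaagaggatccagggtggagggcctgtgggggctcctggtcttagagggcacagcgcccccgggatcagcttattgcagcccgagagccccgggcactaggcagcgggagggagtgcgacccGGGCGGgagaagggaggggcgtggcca
Fgfr2: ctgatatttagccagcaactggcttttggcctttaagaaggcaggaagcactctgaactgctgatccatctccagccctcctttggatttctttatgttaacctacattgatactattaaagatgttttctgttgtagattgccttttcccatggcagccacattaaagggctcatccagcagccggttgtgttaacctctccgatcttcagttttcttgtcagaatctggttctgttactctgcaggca
Kit holds 1 GC box, a match found in 32.9% of 27025 RefSeq windows of 250 bases. Neither sequence holds the letters of the AP-1 motif (6.87% of windows), the ETS motif (12.2%) or the NKX2-1 motif (13.6%). The Kit window is 70.8% G and C, the Fgfr2 window 44.0%. A match is a description of letters and shows no binding.

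Levels came first. In the pools the medians ran from Fgfr2 (70.1 TPM) through Epha2 (53.0), Igf1r (25.6), Kit (21.2), Insr (16.4), Met (16.4), Fgfr1 (13.3), Axl (9.84) and Epha4 (6.47) to Fgfr3 (1.44). Neighbours in this order overlapped between pools, except that the lowest Axl value (8.08 TPM) lay above the highest Epha4 value (7.02 TPM). Across the 15 tumours the order of medians was Epha2 (63.5 TPM), Igf1r (52.1), Fgfr1 (41.0), Axl (33.6), Insr (14.9), Fgfr2 (11.9), Met (11.3), Epha4 (9.48), Fgfr3 (0.893) and Kit (0.878). Here neighbours overlapped except for Epha4, whose lowest value (2.49 TPM) was above the highest Fgfr3 value (2.34 TPM). Fgfr2 went from the first place to the sixth and Kit from the fourth to the last, while Fgfr1 and Axl moved up past Insr and Met. 8 members passed the level filter of 10 TPM in at least 4 libraries that was set for testing. Kit reached 10 TPM in the 3 pools alone, and Fgfr3 in no library, so both take their tests from a fit of the same kind without that filter.

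**Figure D1:**
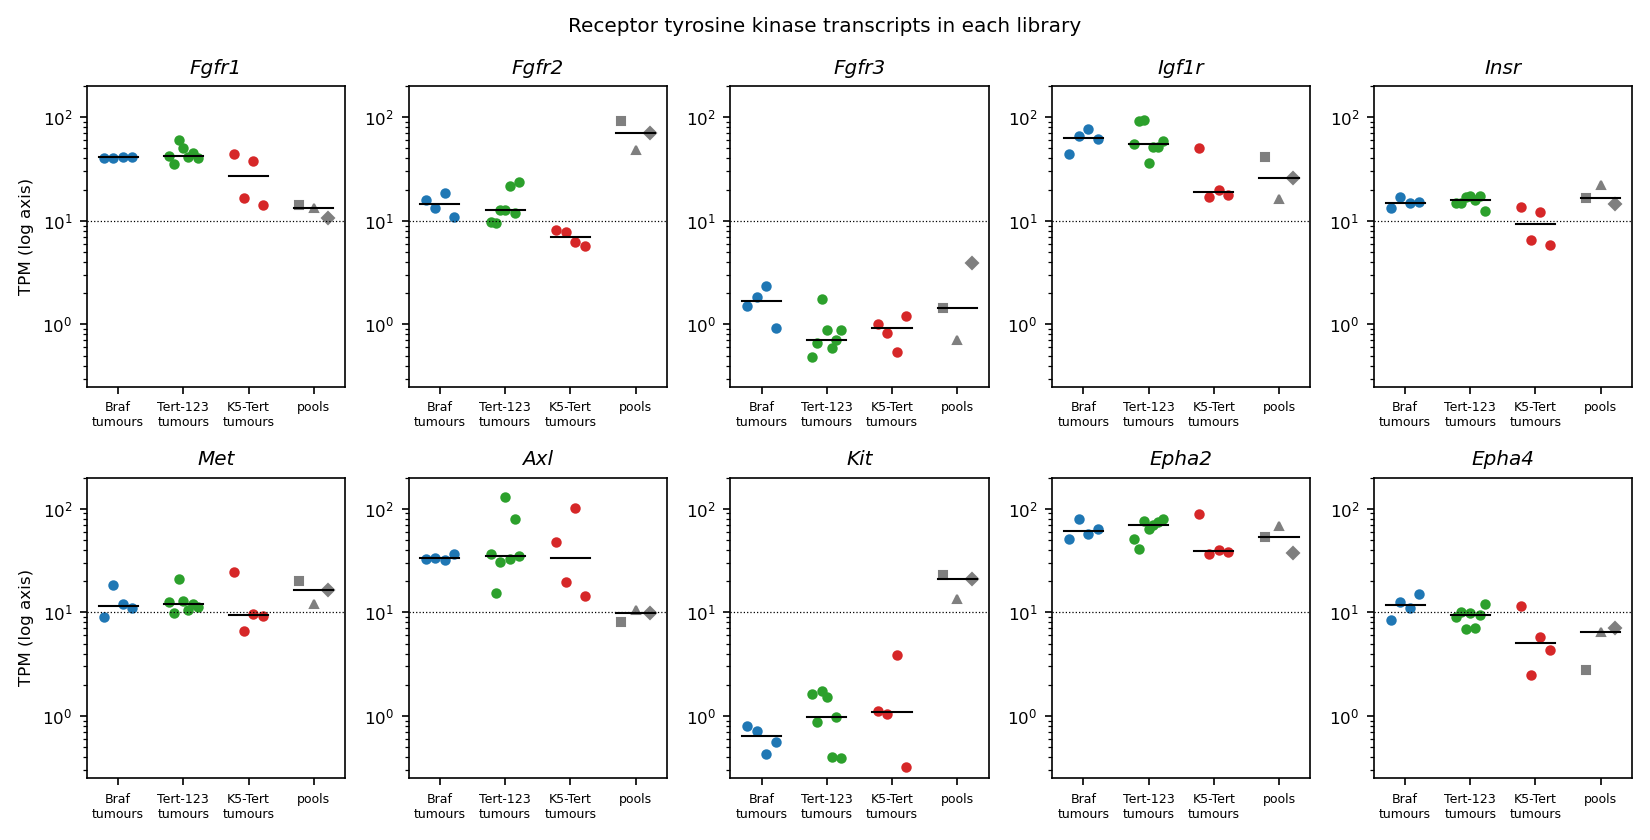
TPM of the 10 receptors in each library on a log axis, by group, with circles for tumours, a square for the K5-Tert pool, a triangle for the Tert-123 pool and a diamond for the wild-type pool. Bars are group medians and the dotted line is 10 TPM. Fgfr2 and Kit sit highest in the pools, Fgfr1 and Axl in the tumours.

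The clearest differences separated the Braf-mutant tumours from the pools. Fgfr2 and Kit fell, Fgfr1 and Axl rose, and the other 6 receptors did not pass the test. The difference between libraries with and without BrafV600E was fitted with limma on log2(TPM + 1) over all 18 libraries. Both Tert alleles were additive terms, so each was taken to act alike with and without BrafV600E. The p-values were adjusted over every tested gene by Benjamini-Hochberg. Every library with the mutation is a tumour and every other is a pool, so mutation, tumour state, cell make-up and pooling cannot be told apart. On that scale the change of low genes is understated. Of the 8 members tested, 2 were higher and 1 was lower, and Kit was lower in the fit without the filter. Among all 7825 genes tested, 15.4% were called higher and 10% lower, and without the filter 6.27% of 22693 genes were called lower. The median log2 difference was 0.37 over the 8 members and 0.07 over all genes. For some genes below, the tumours lay wholly above or below the pools. The share of all genes that did so was not counted.

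The fibroblast growth factor receptors changed places. Fgfr2 encodes a receptor whose epithelial splice form answers to ligands made by the stroma, though splice forms were not separated here. It stood at 92.0 TPM in the K5-Tert pool, 48.2 in the Tert-123 pool and 70.1 in the wild-type pool. In the Braf tumours it was at 15.7, 13.3, 18.5 and 10.8 TPM. The Tert-123 tumours ran from 9.54 to 23.7 TPM with a median of 12.6, and the K5-Tert tumours were at 8.10, 7.76, 6.20 and 5.66 TPM. All 15 tumours thus lay below every pool, and the means, 70.1 ± 21.9 TPM (SD, n = 3) and 12.5 ± 5.37 TPM (SD, n = 15), were 5.6-fold apart. Fgfr2 differed by -2.48 on the log2 scale (95% interval -3.10 to -1.86, adjusted p = 1.7e-06, limma).

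Fgfr1 encodes the receptor that is typical of mesenchymal cells. Its levels in the Braf tumours were 40.1, 40.8, 41.2 and 41.0 TPM, a spread of 0.467 TPM (SD, n = 4), the narrowest of any member in any group of tumours relative to its mean. The Tert-123 tumours ran from 35.7 to 60.1 TPM with a median of 42.2, and the K5-Tert tumours were at 43.8, 16.5, 38.1 and 14.1 TPM. The K5-Tert, Tert-123 and wild-type pools were at 14.3, 13.3 and 10.6 TPM. 14 of 15 tumours lay above every pool, the exception being K5-Tert tumour 4, which was level with the K5-Tert pool. Fgfr1 rose by 1.44 on the log2 scale (95% interval 0.86 to 2.02, adjusted p = 0.000487, limma).

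Their ratio within a library does not change when the whole library is scaled by a single factor. Fgfr1 over Fgfr2 was 0.155 in the K5-Tert pool, 0.277 in the Tert-123 pool and 0.151 in the wild-type pool. In the tumours it ran from 1.71 to 6.16, with medians of 2.81 in Braf, 3.82 in Tert-123 and 3.95 in K5-Tert tumours. Fgfr2 was the more abundant of the pair in 3 of 3 pools and Fgfr1 in 15 of 15 tumours, K5-Tert tumours 2 (2.12) and 4 (2.49) included. Fgfr3, the remaining member of the family, was low in every library. Its highest value was 3.95 TPM in the wild-type pool, and it ran from 0.482 to 2.34 TPM in the tumours and from 0.708 TPM in the pools. It differed by -0.39 (95% interval -0.90 to 0.13, adjusted p = 0.325, limma without the level filter), which does not pass.

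**Figure D2:**
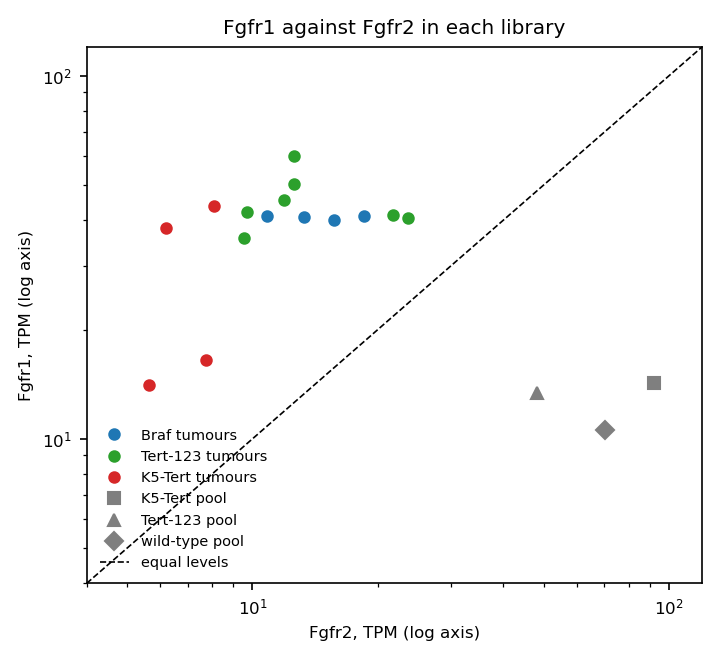
Fgfr1 against Fgfr2 in TPM, 1 point per library on log axes, with the dashed line at equal levels. The 3 pools lie below the line, with ratios of 0.151 to 0.277, and the 15 tumours above it, with ratios of 1.71 to 6.16.

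Fibroblast marker sums overlapped between tumours and pools. The 8 fibroblast markers summed to 91.0 to 2477 TPM in the tumours and to 34.3, 350 and 39.5 TPM in the K5-Tert, Tert-123 and wild-type pools. 7 to 8 of the 8 were at 1 TPM or more in all libraries of each tumour group, and in the K5-Tert pool 3 were at 0, among them Pdgfra. Within the Braf tumours the sum ran from 165 to 707 TPM, with Fgfr1 between 40.1 and 41.2 TPM. Tert-123 tumour 2, with the lowest sum of any tumour (91.0 TPM) and less than the Tert-123 pool, held 35.7 TPM of Fgfr1 against 13.3 TPM in that pool. The part of fibroblasts in the difference of Fgfr1 was not tested.

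Kit, a receptor better known from mast cells and pigment cells, had the largest difference of the 10. It was at 23.0, 13.3 and 21.2 TPM in the K5-Tert, Tert-123 and wild-type pools. Levels in the Braf tumours were 0.800, 0.712, 0.427 and 0.566 TPM. The Tert-123 tumours ran from 0.390 to 1.72 TPM with a median of 0.985, and the K5-Tert tumours were at 1.11, 1.05, 3.90 and 0.320 TPM. No tumour came near a pool: the highest, K5-Tert tumour 3, was at 3.90 TPM and the lowest pool at 13.3 TPM. The mean was 19.2 ± 5.16 TPM (SD, n = 3) in the pools and 1.09 ± 0.899 TPM (SD, n = 15) in the tumours, 17.5-fold lower. Kit differed by -3.32 on the log2 scale (95% interval -4.01 to -2.62, adjusted p = 1.35e-06, limma without the level filter).

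Mast cell, endothelial, C cell and thyrocyte marker sums were higher in the pools, as Kit was. Of 8 mast cell markers, 6 were at 0 in the K5-Tert and in the wild-type pool, including the mast cell protease genes Cpa3 and Tpsb2 and the receptor subunit Ms4a2, and the list summed to 10.6 and 10.99 TPM there. In the Tert-123 pool, where Kit was lowest of the 3, 2 of them were at 0 and the sum was 48.9 TPM. In the tumours the mast cell list summed to 0.754 to 9.97 TPM, below every pool, and to 1.73 to 3.77 TPM in the Braf tumours. Of 7 melanocyte markers, 6 were at 0 in the K5-Tert and wild-type pools, including the pigment genes Tyr and Pmel. The 8 endothelial markers summed to 213, 1959 and 666 TPM in the K5-Tert, Tert-123 and wild-type pools and to 19.6 to 211 TPM in the tumours. The 7 C cell markers, led by the calcitonin gene Calca, summed to 264, 2160 and 443 TPM in those pools and to 7.14 to 44.8 TPM in the tumours. Both sums were highest in the Tert-123 pool, where Kit (13.3 TPM) and Fgfr2 (48.2 TPM) were lowest of the 3. K5-Tert tumour 3 and the K5-Tert pool had nearly equal endothelial sums, 211 and 213 TPM, and Kit at 3.90 and 23.0 TPM. The 12 thyrocyte markers, mostly through Tg, summed to 26429 to 32657 TPM in the pools and to 593 to 1883 TPM in the tumours. Other thyrocyte markers overlapped between pools and tumours. The medians of Pax8 and Foxe1 were higher in the pools. Those of Nkx2-1 (131 TPM in the pools, 164 in the tumours) and Epcam (234 and 280 TPM) were higher in the tumours. The part of these cell types in the results for Kit and Fgfr2 was not tested. In sorted bulk cells, fewer cells of a type and less RNA per cell cannot be told apart.

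Axl, which binds Gas6, was the other receptor that rose. It was at 8.08, 10.6 and 9.84 TPM in the K5-Tert, Tert-123 and wild-type pools. The Braf tumours were at 33.1, 33.6, 31.7 and 36.5 TPM. The Tert-123 tumours ran from 15.2 to 131 TPM with a median of 35.0, and the K5-Tert tumours were at 47.4, 19.8, 101 and 14.5 TPM. All 15 tumours lay above every pool, but by very different amounts. Axl rose by 1.84 on the log2 scale (95% interval 0.87 to 2.81, adjusted p = 0.00527, limma), the widest interval of the 10 receptors in this comparison.

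Axl was highest where the macrophage marker sum was highest, though not every marker or tumour followed. The 3 genes whose log2(TPM + 1) was most correlated with it over the 18 libraries were Fcgr2b, an inhibitory antibody receptor (Pearson's r = 0.97), Mrc1, the macrophage mannose receptor (r = 0.96), and the amino acid transporter Slc7a2 (r = 0.96). Over the 15 tumours alone these values were 0.97, 0.94 and 0.94. They are descriptions, since the libraries share the scale and the difference between tumours and pools. The 8 macrophage markers summed to 568 to 1003 TPM in the Braf tumours, 197 to 5024 in the Tert-123 tumours and 425 to 3274 in the K5-Tert tumours. In the K5-Tert, Tert-123 and wild-type pools they summed to 60.7, 214 and 55.0 TPM, and none of the 8 was at 0 in all libraries of a group. The libraries with the most Axl, Tert-123 tumour 4 (131 TPM), K5-Tert tumour 3 (101) and Tert-123 tumour 6 (79.3), also had the highest sums, 5024, 3274 and 2202 TPM. These 3 tumours had the highest fibroblast sums as well, 2477, 1713 and 903 TPM. Tert-123 tumour 7 had a macrophage sum of 1704 TPM and Axl at only 35.0 TPM. The listed marker Mertk was highest among the tumours in the same 3 (20.8, 8.56 and 9.24 TPM). Against the pools it did not follow Axl, at 5.02 to 9.24 TPM in the pools and 1.89 to 5.76 TPM in the Braf tumours. In the Tert-123 pool the listed marker C1qa (71.8 TPM) was above every Braf tumour (32.7 to 60.1 TPM). Csf1r (18.8 TPM) was inside the Braf range there (13.8 to 22.9 TPM). In the K5-Tert and wild-type pools both were below every Braf tumour (C1qa 6.87 and 8.99 TPM, Csf1r 4.45 and 4.43 TPM). Tert-123 tumour 2, whose macrophage sum (197 TPM) was below that of the Tert-123 pool (214 TPM), held 15.2 TPM of Axl against 10.6 TPM in that pool. The part of macrophages in the difference of Axl was not tested.

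**Figure D3:**
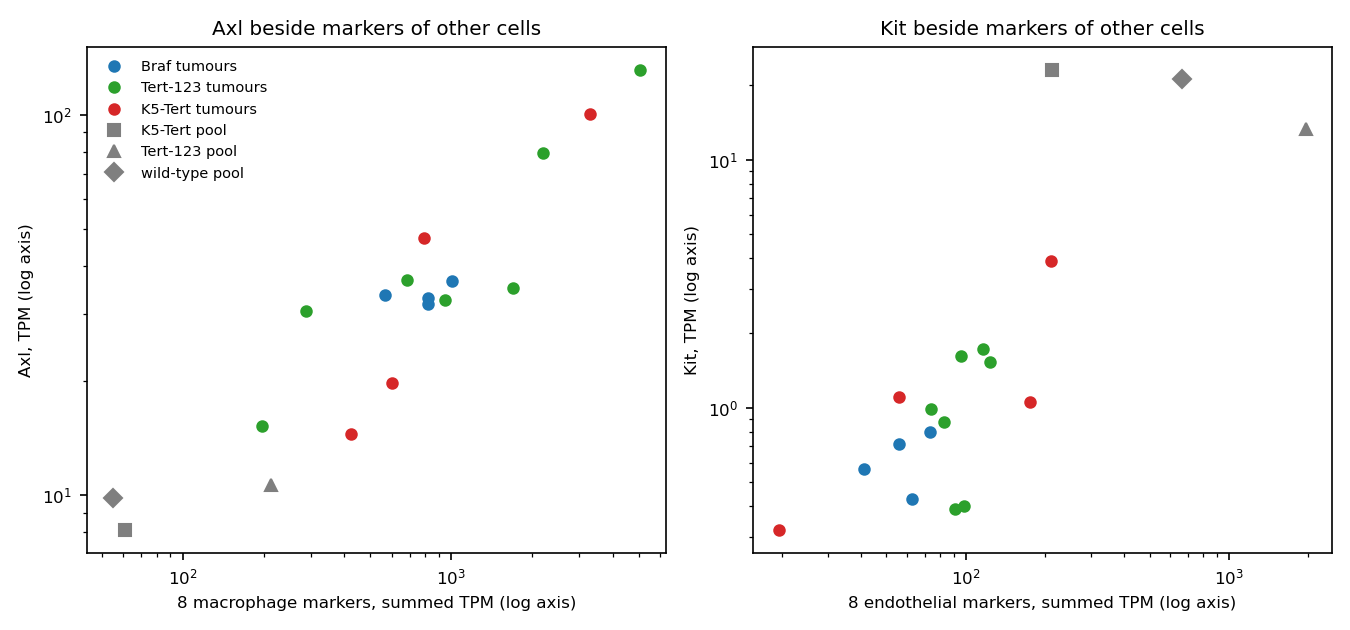
Left, Axl against the summed TPM of 8 macrophage markers; right, Kit against the summed TPM of 8 endothelial markers, 1 point per library on log axes. Axl is highest in the 3 tumours with the highest macrophage sums, and the 3 pools lie far above every tumour for Kit.

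The insulin family did not pass in either direction. Igf1r was at 41.6, 16.1 and 25.6 TPM in the K5-Tert, Tert-123 and wild-type pools and at 43.8, 65.7, 76.3 and 61.1 TPM in the Braf tumours. The Tert-123 tumours ran from 36.0 to 93.5 TPM with a median of 54.9. 11 of 15 tumours were above every pool, and the K5-Tert tumours were mixed, at 50.8, 16.8, 19.8 and 17.8 TPM. Igf1r differed by 0.78 (95% interval -0.01 to 1.57, adjusted p = 0.141, limma). It passed with TMM-type scaling (0.77, adjusted p = 0.038, limma), with quantile normalization (0.87, adjusted p = 0.0331), with the trend on transcript length removed (1.01, adjusted p = 0.0045) and without the K5-Tert pool (1.53, adjusted p = 0.00334). Without the Tert-123 pool, the lowest of the 3, it was 0.20 (adjusted p = 0.783).

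Insr was even. It lay at 16.4, 22.2 and 14.7 TPM in the K5-Tert, Tert-123 and wild-type pools, at 13.3, 17.0, 14.8 and 15.2 TPM in the Braf tumours and between 12.5 and 17.3 TPM in the Tert-123 tumours. The difference was -0.42 (95% interval -0.91 to 0.07, adjusted p = 0.203, limma), and with TMM-type scaling it passed at -0.44 (adjusted p = 0.0339). Igf1r over Insr within a library was 0.722 to 2.53 in the pools and 1.63 to 6.18 in the tumours, and these ranges overlap.

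Met and the ephrin receptors did not pass either. Met, a receptor that is often high in papillary thyroid carcinoma, was at 20.1, 12.03 and 16.4 TPM in the K5-Tert, Tert-123 and wild-type pools. Its Braf tumours were at 9.04, 18.5, 12.1 and 10.96 TPM, and 8 of 15 tumours lay below every pool and 2 above. The difference was -0.37 (95% interval -0.99 to 0.24, adjusted p = 0.400, limma). Epha2, an epithelial ephrin receptor, had the highest median over the 15 tumours, though Igf1r had the highest over the Braf tumours alone (63.4 against 60.3 TPM). It was at 51.3, 79.0, 57.1 and 63.5 TPM in the Braf tumours, and was as high in the K5-Tert (53.0 TPM) and Tert-123 (68.7 TPM) pools, with 37.8 TPM in the wild-type pool. It differed by 0.13 (95% interval -0.41 to 0.68, adjusted p = 0.761, limma). Epha4 was at 8.45, 12.5, 10.9 and 14.9 TPM in the Braf tumours and at 2.75, 6.47 and 7.02 TPM in the K5-Tert, Tert-123 and wild-type pools. 10 of 15 tumours lay above every pool, and the difference of 0.60 (95% interval -0.04 to 1.24, adjusted p = 0.164, limma) did not pass. All 4 Braf tumours were among those 10, and with the length trend removed Epha4 passed (0.66, adjusted p = 0.0379, limma).

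**Figure D4:**
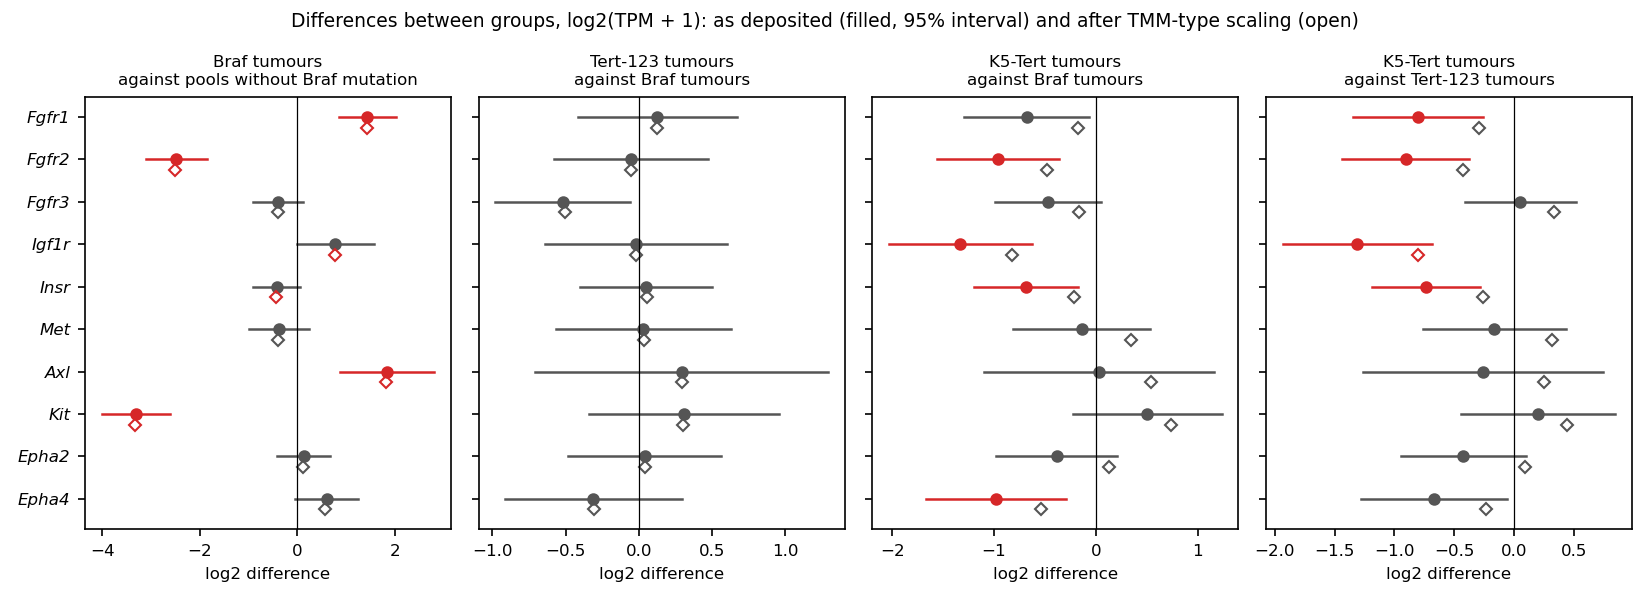
Log2 differences of the 10 receptors in 4 comparisons: filled points with 95% intervals from TPM as deposited, open diamonds after TMM-type scaling, red where the adjusted p was under 0.05. Kit and Fgfr3 come from the fit without the level filter. The 4 receptors called against the pools (Fgfr1, Fgfr2, Axl and Kit) keep their calls after scaling, while of the calls of K5-Tert tumours only Igf1r against Tert-123 tumours does.

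The ligands of these receptors were read from a list of 21 genes, of which 7 could be tested against the pools: 2 were higher and 1 was lower, with a median log2 difference of -0.41 against 0.07 for all genes. The counts of this and the next 4 lists are read beside the 15.4% of all tested genes called higher and 10% called lower. Fgf1, which binds every fibroblast growth factor receptor, fell with Fgfr2. It was at 51.5 ± 6.99 TPM (SD, n = 3) in the pools and 7.85 ± 2.45 TPM (SD, n = 4) in the Braf tumours, a log2 difference of -2.58 (adjusted p = 3.77e-07, limma). Pros1, a ligand of the Axl family, rose by 1.04 (adjusted p = 0.0283, limma), and the ephrin Efnb1 rose by 0.73 (adjusted p = 0.0319, limma). Gas6, the high-affinity ligand of Axl, did not pass: it was at 33.5 to 92.7 TPM in the pools and 5.08 to 145 TPM in the tumours (log2 difference -1.36, adjusted p = 0.103, limma). Most other ligands were low. Hgf, the ligand of Met, was at no more than 3.32 TPM in any tumour and was listed at 0 in 2 of 3 pools, and Igf1 reached 17.4 TPM in a tumour and 5.52 TPM in a pool. Kitl, the ligand of Kit, named after its values were seen, did not reach the filter, and was at 10.2 to 29.6 TPM in the pools and 1.03 to 4.83 TPM in the tumours, without overlap.

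Proteins outside the cell that hold ligands or act as co-receptors rose more often than they fell. Of 24 listed, 19 were tested, and 6 were higher and 1 lower, with a median log2 difference of 0.63. The heparan sulphate proteoglycan Sdc1 was at 5.69 ± 0.983 TPM (SD, n = 3) in the pools and 132 ± 41.2 TPM (SD, n = 4) in the Braf tumours, a log2 difference of 4.07 (adjusted p = 4.75e-09, limma). The glypicans Gpc1 (log2 difference 3.21) and Gpc3 (2.89), which carry heparan sulphate as well, were also called. Igfbp2, an insulin-like growth factor binding protein, was listed at 0 in all 3 pools and at 9.08 ± 9.39 TPM (SD, n = 4) in the Braf tumours. With TMM-type scaling the count of higher genes in this list was 9.

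Inside the cell the directions were mixed. Among adaptors and docking proteins 5 of 19 tested were higher and 2 lower: Shc1 (log2 difference 1.06) and Nck2 (1.18), which bind phosphorylated receptors, rose, and the insulin receptor substrate Irs2 (-1.29) and the PI3K subunit Pik3r1 (-1.23) fell. Without the Tert-123 pool only 1 of the 19 was higher and 2 were lower, and Nck2 lost its call (0.90, adjusted p = 0.0976, limma). Of 13 tested inhibitors and related adaptors of receptors, 1 was higher and 3 were lower. Grb14, which blocks the insulin receptor, fell from 59.7 ± 27.5 TPM (SD, n = 3) in the pools to 9.70 ± 4.17 TPM (SD, n = 4) in the Braf tumours, a log2 difference of -2.80 (adjusted p = 5.21e-06, limma). Its relative Grb10 fell by 2.02 on the log2 scale, and not without the Tert-123 pool (-1.69, adjusted p = 0.0951). Lrig1, which promotes the breakdown of receptors, fell by 1.37, and the adaptor Grb7 rose by 2.28.

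Other receptor tyrosine kinases were taken from a list of 41, of which 11 were tested, and 4 were higher and 2 lower. Ephb6, an ephrin receptor without kinase activity, was at 2.02 ± 0.325 TPM (SD, n = 3) in the pools and 35.3 ± 7.56 TPM (SD, n = 4) in the Braf tumours, a log2 difference of 3.44 (adjusted p = 1e-09, limma). Ptk7, a Wnt co-receptor that also lacks kinase activity, rose by 1.81 (adjusted p = 7.57e-07, limma). The endothelial receptors Flt1 and Kdr fell, by log2 differences of -2.54 and -3.45, beside the fall of the endothelial sum given above. With TMM-type scaling 3 were lower.

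The Tert promoter change added to BrafV600E gave no call among the receptors. Tert-123 tumours were compared with Braf tumours in a limma fit of the 15 tumours. Of 7825 genes tested, 0% were called higher and 0% lower, 51 genes had an unadjusted p under 0.05, and without the level filter 1 gene was lower. None of the 8 members tested passed (adjusted p = 0.9997 for each, limma), and their median log2 difference was 0.03. Fgfr1 differed by 0.12 (95% interval -0.42 to 0.67), Fgfr2 by -0.06 (-0.58 to 0.47), Igf1r by -0.02 (-0.64 to 0.60) and Axl by 0.29 (-0.71 to 1.29). The smallest unadjusted p of the 10 was that of Fgfr3, which was at 1.52, 1.85, 2.34 and 0.919 TPM in the Braf tumours and below all of them in 6 of 7 Tert-123 tumours. In the limma fit without the level filter it differed by -0.52 (95% interval -0.98 to -0.06, adjusted p = 1.0). The lists of ligands, extracellular modifiers, adaptors, inhibitors and other receptors had 0 calls in this comparison.

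With K5-Tert the level of many receptors was lower as deposited. Igf1r, Fgfr2, Epha4 and Insr were lower in K5-Tert than in Braf tumours, 4 of the 8 members tested, and none was higher. In all, 21.2% of the 7825 genes were called lower and 0.626% higher, and the median gene was lower by 0.47 on the log2 scale (-0.47), so the members' median of -0.68 stands against a general shift. TMM-type scaling removed that shift (median 0.02) and turned the split of 49 genes higher and 1662 lower into 486 higher and 649 lower. After it, 0 of the 4 receptors passed. The same 4 were at 0 calls with quantile normalization, with the trend on transcript length removed, and without K5-Tert tumours 2 and 4.

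Igf1r showed the largest difference from Braf tumours. K5-Tert tumours 2, 3 and 4, at 16.8, 19.8 and 17.8 TPM, were below every Braf tumour, while tumour 1 (50.8 TPM) lay inside the Braf range of 43.8 to 76.3 TPM. The difference was -1.33 (95% interval -2.03 to -0.63, adjusted p = 0.0141, limma). It was -0.82 with TMM-type scaling (adjusted p = 0.0525) and -0.91 without K5-Tert tumours 2 and 4 (adjusted p = 0.290). Igf1r has the longest transcript of the members, up to 11409 bases, and with the length trend removed it differed by -0.50 (adjusted p = 0.238). The call was also lost when Braf tumour 3, K5-Tert tumour 2 or K5-Tert tumour 4 was left out (largest adjusted p = 0.0579, limma).

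Fgfr2 was the member for which all 4 K5-Tert tumours agreed. Their values of 8.10, 7.76, 6.20 and 5.66 TPM were below every Braf tumour (10.8 TPM at the lowest) and below every Tert-123 tumour (9.54 TPM at the lowest). How many of all genes lay apart in this way was not counted. As deposited the median gene differed by -0.47 in both comparisons. The difference from Braf tumours was -0.96 (95% interval -1.56 to -0.37, adjusted p = 0.0254, limma), and without K5-Tert tumours 2 and 4 it was nearly the same size, -0.92, and did not pass (adjusted p = 0.225). With TMM-type scaling it was -0.48 (adjusted p = 0.211). Leaving out Braf tumour 1, 2 or 3 or K5-Tert tumour 2 or 4 ended the call (largest adjusted p = 0.0929, limma).

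Epha4 and Insr were lowest in tumours 2 and 4, and tumour 3 was also below every Braf tumour for both. Epha4 was at 11.5, 2.49, 5.81 and 4.37 TPM in K5-Tert tumours 1 to 4, of which tumour 1 lay inside the Braf range of 8.45 to 14.9 TPM. It differed by -0.98 (adjusted p = 0.040, limma), by -0.54 with TMM-type scaling (adjusted p = 0.132) and by -0.43 without tumours 2 and 4 (adjusted p = 0.525). Insr, whose longest transcript has 9355 bases, was at 13.6, 6.58, 12.1 and 5.78 TPM. It differed by -0.69 (adjusted p = 0.0493, limma), and by -0.22 without tumours 2 and 4 (adjusted p = 0.624). The call of Insr was lost in 13 of 15 fits that left out 1 tumour and that of Epha4 in 8.

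The remaining members did not pass against Braf tumours. Fgfr1 was at -0.68 (adjusted p = 0.0952, limma) and at 0.0044 without K5-Tert tumours 2 and 4, and it passed without K5-Tert tumour 1 (-0.94, adjusted p = 0.0102) or 3 (-0.87, adjusted p = 0.0473). Axl differed by 0.03 (95% interval -1.10 to 1.16), Met by -0.14 (-0.81 to 0.54) and Epha2 by -0.39 (-0.98 to 0.20), and Met and Epha2 were above 0 after TMM-type scaling. Without K5-Tert tumour 1, Epha2 passed as lower (-0.68, adjusted p = 0.0277, limma). K5-Tert tumour 1 was the highest of all 18 libraries for Met (24.3 TPM) and for Epha2 (88.0 TPM). Kit (0.51, 95% interval -0.22 to 1.23) and Fgfr3 (-0.47, -0.99 to 0.05) did not pass in the fit without the level filter.

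Against Tert-123 tumours, 4 members were lower in K5-Tert tumours and none was higher: Igf1r by -1.31 (adjusted p = 0.00688, limma), Fgfr2 by -0.91 (adjusted p = 0.0157), Insr by -0.74 (adjusted p = 0.0193) and Fgfr1 by -0.80 (adjusted p = 0.0289). The background was 28.5% of genes lower and 0.805% higher, with 63 higher and 2230 lower as deposited and 549 higher and 657 lower after TMM-type scaling. Epha4 did not pass (-0.67, adjusted p = 0.082, limma), but without K5-Tert tumour 1 both Epha4 (-0.997, adjusted p = 0.00406) and Epha2 (-0.72, adjusted p = 0.011) did. Both comparisons share the K5-Tert tumours. After TMM-type scaling Igf1r alone was called, at -0.80, and without K5-Tert tumours 2 and 4 none was, with Igf1r at -0.89 (adjusted p = 0.307, limma). Leaving out K5-Tert tumour 2 ended the calls of Insr and Fgfr1, leaving out tumour 4 ended those of Insr, Fgfr1 and Fgfr2, and leaving out Tert-123 tumour 3 ended that of Fgfr1.

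**Figure D5:**
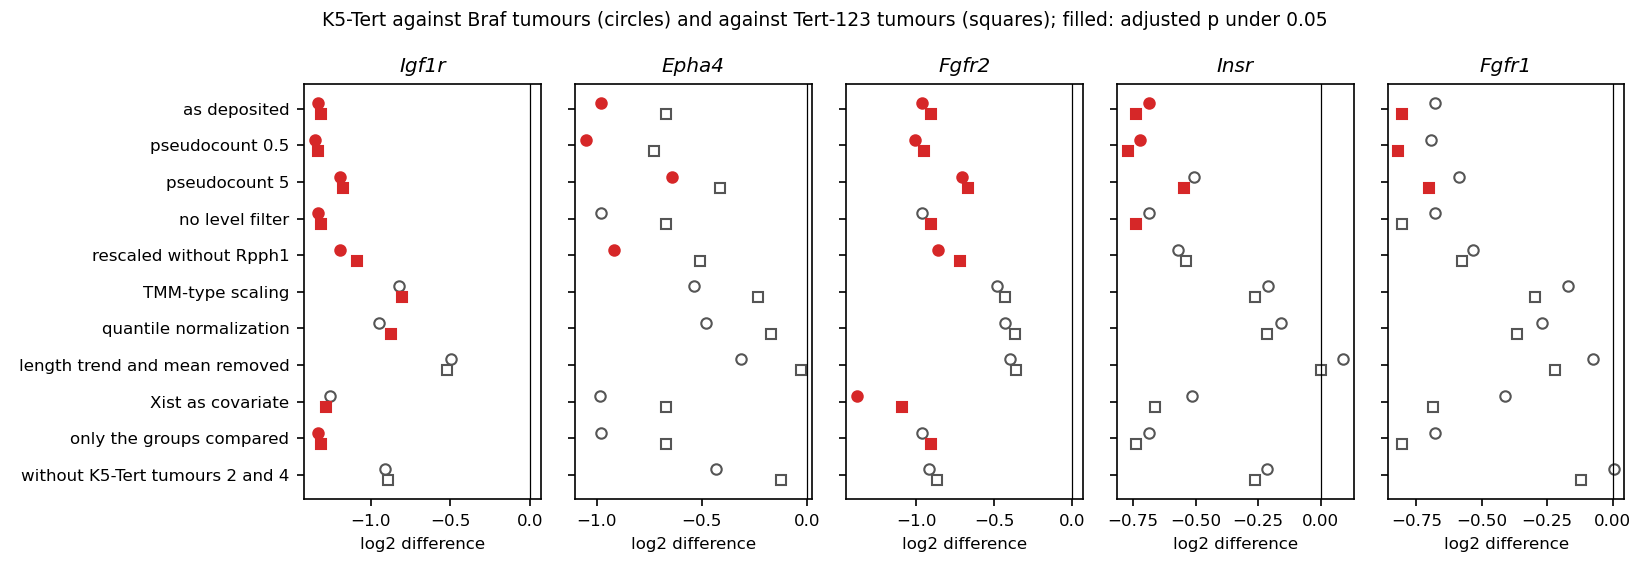
Log2 differences of 5 receptors between K5-Tert tumours and Braf tumours (circles) or Tert-123 tumours (squares) under each setting, filled where the adjusted p was under 0.05. All values lie at or below 0 except Insr with the length trend removed (0.09, circle) and Fgfr1 without K5-Tert tumours 2 and 4 (0.0044, circle), and no call is left without K5-Tert tumours 2 and 4.

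Signalling partners showed the same dependence. Of 19 adaptors tested, 5 were lower in K5-Tert than in Braf tumours and 10 lower than in Tert-123 tumours, with none higher, against 21.2% and 28.5% of all genes lower. After TMM-type scaling 1 and 3 were lower. The insulin receptor substrate Irs1, at 3.55 ± 1.63 TPM (SD, n = 4) in K5-Tert and 11.5 ± 3.11 TPM (SD, n = 4) in Braf tumours, differed by -1.50 (adjusted p = 0.0125, limma) and by -1.08 after TMM-type scaling (adjusted p = 0.0328). It did not pass without K5-Tert tumours 2 and 4 (-1.11, adjusted p = 0.232). Plcg1, the phospholipase that binds activated receptors, differed by -0.96 (adjusted p = 0.0224, limma) from Braf tumours and by -1.08 (adjusted p = 0.00687) from Tert-123 tumours. The exchange factor Sos2 and the adaptor Sh2b1 were also lower than in Braf tumours, by -1.01 and -0.88. Without tumours 2 and 4, 0 of the 19 adaptors passed in either comparison. Among the other lists, Gpc3 of 19 extracellular modifiers, the endocytic adaptor Cd2ap of 13 inhibitors and Ephb3 of 11 other receptors were lower than in Braf tumours, and 0 of 7 ligands. After TMM-type scaling Cd2ap alone of these 3 passed (-0.63, adjusted p = 0.0435, limma), and without tumours 2 and 4 none did (Gpc3 -1.58, adjusted p = 0.244; Cd2ap -0.55, adjusted p = 0.417; Ephb3 -0.64, adjusted p = 0.377).

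Genes most alike in level were named for each tested member by the correlation of log2(TPM + 1) over the 18 libraries, as a description. Fgfr1 was closest to the transcription factor gene Runx1 (r = 0.97, and 0.94 over the tumours). Fgfr2 was closest to the phospholipase gene Plcb4 (r = 0.93), a likeness that fell to 0.67 over the 15 tumours, since both stood high in the pools. Igf1r was closest to the RNA silencing factor Tnrc6a (0.96) and to Nf1, the RAS inhibitor neurofibromin (0.96), and Insr to the motor protein gene Kif2a (0.95). Met (Fam102a, 0.92), Epha4 (Thap4, 0.90) and Epha2 (Plaa, 0.85) had looser neighbours.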

How the data were processed

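The deposited table gives 1 value per gene symbol and library; its unit was taken to be TPM because each deposited column sums to about the same fixed total (999545 to 999804 after the left-out rows), and the table's name speaks of normalized counts. The aligner, quantifier and build are not given in the sources used, and splice forms are not separated. Cells were sorted and RNA libraries made by a low-input protocol, per the labels. Of 23652 rows, 26 named by dates were left out. Groups come from the genotype labels; library numbers only name samples. limma 3.58.1 (R 4.3.3) was run with its trend option on log2(TPM + 1) of genes with at least 10 TPM in at least 4 libraries; tests were two-sided, p was adjusted over every tested gene by Benjamini-Hochberg, and calls had an adjusted p under 0.05. Tumour comparisons used the 15 tumours (12 residual degrees of freedom), the Braf comparison all 18 libraries (14). The fit was tested on simulated data drawn separately for each gene, so shifts shared by many genes of a library were not covered. The TMM-type factors trimmed 30% of ratios and 5% of levels. Alternatives were other pseudocounts, no filter, 4 other scalings, Xist as covariate, fewer groups and leaving libraries out. Named were all members, up to 4 called genes with the smallest p per list and comparison, and the genes most alike. Members, lists and alternatives were chosen with earlier results of these data known. Promoter windows are from RefSeq, for GRCm38.p6.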

Additional observations from a re-analysis of the deposited data

Results flagged for a closer look

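Within groups of 4 to 10 libraries, 30 combinations of receptor and tumour group were looked at for a library far from the others, measured as its gap to the nearest library over the range of the group. 5 exceeded the 95% limit for their size, and chance alone gives about 1 in 20. The combinations share libraries, so they are not independent. 3 of them were K5-Tert tumour 1: Igf1r (50.8 TPM, gap 0.913 of the range), Epha2 (88.0 TPM, 0.930) and Met (24.3 TPM, 0.837), each with the other 3 K5-Tert tumours below. The other two were Tert-123 tumour 3, for Met (20.9 TPM, 0.730) and for Fgfr3 (1.75 TPM, 0.677).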

How the results depend on the processing

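The 4 receptors called against the pools (Fgfr1, Fgfr2, Axl and Kit) kept their direction and their calls under each scaling, pseudocount, covariate and filter tried and without each library in turn. With 1 library left out at a time, their log2 differences ranged from 1.24 to 1.75 (Fgfr1), -2.89 to -1.97 (Fgfr2), 1.68 to 1.96 (Axl) and -3.58 to -3.10 (Kit). The calls of receptors in K5-Tert tumours depended on the scale, on K5-Tert tumours 2 and 4 and on the covariate Xist, and the cause was not tested. Xist was at 63.9 to 89.9 TPM in the Braf tumours and 52.5 TPM in K5-Tert tumour 3. It was at no more than 0.0294 TPM in K5-Tert tumours 1, 2 and 4, so Xist and genotype largely overlap. With Xist as covariate Fgfr2 kept its call against Braf tumours (adjusted p = 0.0341, limma). Igf1r (0.0905), Epha4 (0.142) and Insr (0.259) lost theirs. The difference of Fgfr2 kept its size without these tumours (-0.92 against Braf and -0.87 against Tert-123 tumours), with 2 K5-Tert libraries left. The read depth is unknown, so no limit from counting can be given, and the pools, as single libraries, carry no spread of their own genotype. No paired analysis was possible because the labels carry no replicate numbers.

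Counts of genes called rest on 7825 genes tested in most settings. They rest on 22693 without the level filter, 10819 rescaled without Rpph1 and 7773 with each library free of its mean and length trend. Counts from these settings are not on the same footing. Most counts of calls that changed little from those as deposited are left out below. The number of genes called lower between Tert-123 and Braf tumours, 0 as deposited, was 1 without the level filter. Signs of the differences between Tert-123 and Braf tumours changed for these receptors: rescaled without Rpph1 Met (-0.048), Insr (-0.030) and Epha2 (-0.044), with each library free of its mean and length trend Igf1r (0.026), with Xist as covariate Igf1r (0.023) and Epha2 (-0.12), with quantile normalization Epha2 (-0.024). Genes called higher between K5-Tert and Braf tumours, 49 as deposited, numbered 32 without the level filter, 486 with TMM-type scaling, 181 with quantile normalization, 135 rescaled without Rpph1, 286 with each library free of its mean and length trend, 13 with Xist as covariate and 7 without K5-Tert tumours 2 and 4. The number of genes called lower between K5-Tert and Braf tumours, 1662 as deposited, was 649 with TMM-type scaling, 525 with quantile normalization, 406 with each library free of its mean and length trend, 221 with Xist as covariate, 477 with only the groups compared and 17 without K5-Tert tumours 2 and 4. The number of receptors called lower between K5-Tert and Braf tumours, 4 as deposited, was 1 without the level filter, 0 with TMM-type scaling, 0 with quantile normalization, 0 with each library free of its mean and length trend, 1 with Xist as covariate, 1 with only the groups compared and 0 without K5-Tert tumours 2 and 4. Signs of the differences between K5-Tert and Braf tumours changed for these receptors: with TMM-type scaling Met (0.34) and Epha2 (0.13), with quantile normalization Met (0.39) and Fgfr3 (0.053), rescaled without Rpph1 Met (0.010), with each library free of its mean and length trend Met (0.55), Fgfr3 (0.085), Insr (0.088) and Epha2 (0.15), without K5-Tert tumours 2 and 4 Met (0.30) and Fgfr1 (0.0044). Genes called higher between K5-Tert and Tert-123 tumours, 63 as deposited, numbered 549 with TMM-type scaling, 254 with quantile normalization, 192 rescaled without Rpph1, 335 with each library free of its mean and length trend, 40 with only the groups compared and 9 without K5-Tert tumours 2 and 4. The number of genes called lower between K5-Tert and Tert-123 tumours, 2230 as deposited, was 657 with TMM-type scaling, 520 with quantile normalization, 494 with each library free of its mean and length trend, 1176 with only the groups compared and 17 without K5-Tert tumours 2 and 4. The number of receptors called lower between K5-Tert and Tert-123 tumours, 4 as deposited, was 1 with TMM-type scaling, 1 with quantile normalization, 2 rescaled without Rpph1, 0 with each library free of its mean and length trend, 2 with Xist as covariate, 2 with only the groups compared and 0 without K5-Tert tumours 2 and 4. Signs of the differences between K5-Tert and Tert-123 tumours changed for these receptors: with TMM-type scaling Met (0.31), Axl (0.25) and Epha2 (0.093), with quantile normalization Met (0.34) and Axl (0.14), rescaled without Rpph1 Met (0.058), with each library free of its mean and length trend Met (0.49), Axl (0.28) and Epha2 (0.095), without K5-Tert tumours 2 and 4 Met (0.27), Axl (0.72) and Fgfr3 (-0.047). Genes called higher between tumours and pools, 1205 as deposited, numbered 1911 with quantile normalization and 2257 rescaled without Rpph1. The number of genes called lower between tumours and pools, 786 as deposited (10% of those tested), was 1423 without the level filter (6.27%). It was 1448 with TMM-type scaling, 1271 with quantile normalization, 1556 rescaled without Rpph1 and 1931 with each library free of its mean and length trend. The number of receptors called higher between tumours and pools, 2 as deposited, was 3 with TMM-type scaling, 3 with quantile normalization and 4 with each library free of its mean and length trend. The number of receptors called lower between tumours and pools, 1 as deposited, was 2 without the level filter and 2 with TMM-type scaling.

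Leaving out 1 library at a time moved the counts of calls: genes higher between K5-Tert and Braf tumours from 21 to 83, genes lower between K5-Tert and Braf tumours from 388 to 3607, receptors lower between K5-Tert and Braf tumours from 0 to 6, genes higher between K5-Tert and Tert-123 tumours from 24 to 98, genes lower between K5-Tert and Tert-123 tumours from 525 to 4048, receptors lower between K5-Tert and Tert-123 tumours from 1 to 6, genes higher between tumours and pools from 768 to 1826 and genes lower between tumours and pools from 469 to 901. Differences that changed sign in this way, with their ranges, were between Tert-123 and Braf tumours Met (-0.10 to 0.22), Fgfr2 (-0.18 to 0.061), Igf1r (-0.17 to 0.10), Insr (-0.0049 to 0.11) and Epha2 (-0.050 to 0.15), between K5-Tert and Braf tumours Met (-0.50 to 0.078) and Axl (-0.47 to 0.43), between K5-Tert and Tert-123 tumours Met (-0.53 to 0.048), Axl (-0.77 to 0.14), Fgfr3 (-0.027 to 0.15) and Kit (-0.17 to 0.47), between tumours and pools Epha2 (-0.14 to 0.28).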
